A study of Ovis aries with 20 samples.

Results

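The genes described here are named for proteins of the mitochondrial ribosome, and all but MRPS36 encode such a protein. They were chosen by name, as every gene of the deposited table whose symbol begins with MRPL or MRPS followed by a digit, and 75 of 28524 genes met this rule, 48 named for the large subunit and 27 for the small subunit. Of these, 74 passed the filter on low values in every comparison. The exception, MRPS26, was listed at 0 in most libraries and averaged 0.576 normalized counts. Of the 75 symbols, 73 were found in the RefSeq sheep table of assembly ARS-UI_Ramb_v3.0, where the span of 24 overlaps that of another annotated gene. For those 24 the level is uncertain, because the sources used here do not say how reads were counted by strand. Among them are MRPS7 (with MIF4GD), MRPS12 (with SARS2), MRPS34 (with EME2), MRPL33 (with RBKS), MRPL47 (with ACTL6A) and MRPL49 (with SYVN1). MRPL1, MRPL3, MRPL17, MRPL23, MRPL38, MRPS5, MRPS18A, MRPS18C and MRPS25 also overlap another annotated gene.

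The mitochondrial ribosome sits in the mitochondrial matrix and makes the few proteins encoded by mitochondrial DNA, which are core subunits of the respiratory chain and of ATP synthase. Its RNAs come from mitochondrial DNA, but all of its proteins are encoded in the nucleus, made in the cytosol and imported. Some of them have counterparts in bacterial ribosomes, and others are found in mitochondria only. In the ovary, mitochondria house the enzyme that turns cholesterol into pregnenolone, the first step of steroid synthesis, and human variants in MRPS22 and MRPL50 have been linked to ovarian insufficiency and variants in MRPS7 to hypogonadism.

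The tissue came from adult sheep aged 21 months. Of 10 animals, 5 (sheep 209, 210, 230, 276 and 315) were born to ewes given intramuscular testosterone propionate and are called prenatal T here. Each injection held 100 mg or 1.2 mg/kg, with 2 injections a week from gestational day 30 to day 90. The other 5 (sheep 139, 224, 244, 246 and 268) were born to ewes given vehicle over the same days and are called control. All animals received prostaglandin F2α (10 mg) in 2 injections 11 days apart to align their cycles, and ovaries were taken 18 hours after the last one. Granulosa cells line the follicle and convert androgen to estradiol, and the theca layer outside them supplies that androgen. Both were cut out of 14 µm frozen sections from several antral follicles of an animal and pooled. The table held 5 prenatal T and 4 control granulosa libraries, and 5 prenatal T and 5 control theca libraries. The granulosa library of control sheep 139 was not analysed here.

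Values are normalized counts, read counts divided by a factor for the library's depth. Recovered totals ran from 12699124 to 26028146 reads per library. Levels are compared between libraries and not between genes, because a count also rises with transcript length, and lengths were not used here. The exception is the choice of members to name by highest and lowest mean, which was not corrected for length. Each library is 1 animal, and the follicles pooled in it are not separate replicates. Since the tissue is bulk, fewer cells of a type and less RNA per cell cannot be told apart.

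Both libraries of prenatal T sheep 209 stood apart. AMH and FSHR, which mark granulosa cells, and CYP17A1, the androgen-making enzyme of theca cells, were listed at 0 in both. INSL3, the other steroid-cell marker of the theca list, was at 1.15 in its granulosa and 1.27 in its theca library. The stromal genes of that list were present, so that the 7 theca markers summed to 13592 in its granulosa and 256363 in its theca library, a difference in the direction of the labels. The summed level of 5 epithelial markers was 60975 in its granulosa library and 14887 in its theca library, against 140.3 to 3991 in the other granulosa libraries and 83.8 to 672 in the other theca libraries. Its 7 summed granulosa markers came to 394 in the library labelled granulosa, against 21661 to 118283 in the other granulosa libraries, and to 6087 in the library labelled theca. Most of both sums was INHBA, at 330 in its granulosa and 5857 in its theca library. FOXL2 was at 36.8 and 206, INHA at 8.05 and 7.59 and HSD17B1 at 18.4 and 16.4 in that order, and CYP19 was at 0 in both. The 5 immune markers summed to 12730 in its granulosa and 15054 in its theca library, against 168.5 to 1771 in the other granulosa and 562 to 1921 in the other theca libraries. The granulosa markers, mostly absent or low in both libraries of sheep 209, thus do not bear out the label of its granulosa library. The counts of genes called below are given with and without this animal. In the other animals, the 7 granulosa markers summed to between 8473 and 23061 in theca libraries and were higher in the granulosa library of each animal. The 7 theca markers summed to between 13759 and 53193 in granulosa libraries and between 422255 and 681660 in theca libraries.

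Most mitochondrial ribosomal protein genes were higher in granulosa than in theca cells. In the 9 animals with both layers, 47 of 74 tested genes (63.5%) were called higher in granulosa cells and 2 were called lower by limma at a Benjamini-Hochberg adjusted p under 0.05, with the animal as a block. Over all 16169 genes tested, 28.8% were called higher and 27.8% lower, so the higher calls were more frequent among these 74 genes than in the background and the lower calls less frequent. No test of that excess was run. The median log2 difference, granulosa minus theca, was 0.27 over the 74 genes and 0.028 over all genes tested, and 63 of the 74 lay above 0. Single differences ran from -0.29 to 0.64 on the log2 scale of the value plus 1.

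The summed level of these genes was higher in the granulosa than in the theca library of each animal. Summed over the 75 genes, the prenatal T animals had 33050 (sheep 209), 37734 (210), 41963 (230), 45239 (276) and 35675 (315) normalized counts in granulosa cells. The same animals in the same order had 26622, 32042, 33854, 35951 and 32746 in theca cells. Control animals had 35731 (224), 34807 (244), 37799 (246) and 40869 (268) in granulosa cells, and 33536, 27182, 33402 and 36892 in theca cells in that order. The theca library of control sheep 139 had 32347. The granulosa sum was above the theca sum in 9 of 9 animals, by a ratio of 1.18 ± 0.08 (SD, n = 9) with a range of 1.07 to 1.28. Over the 8 animals without sheep 209 the ratio was 1.17 ± 0.08 (SD, n = 8) with the same range. Sheep 276 had the highest sum of all granulosa libraries, sheep 268 had the highest of all theca libraries, and sheep 209 had the lowest sum in both layers. Within an animal, between 48 and 69 of the 74 genes were higher in granulosa cells. The 69 was that of sheep 209, whose granulosa markers do not bear out the label of its granulosa library. The other animals ran from 48 (sheep 224) to 63 (sheep 244). The like count over all genes was not made for single animals.

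**Figure D1:**
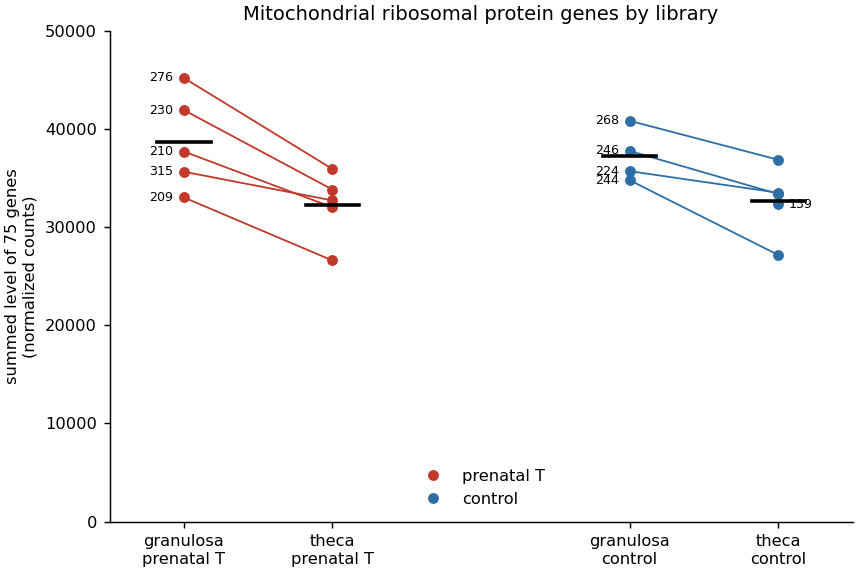
Summed level of the 75 genes in each library, in normalized counts, with granulosa left of theca and prenatal T animals left of control animals. Lines join the layers of an animal, numbers are sheep, black bars are group means; every line falls towards theca, and sheep 209 is the lowest prenatal T animal in both layers.

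Without sheep 209, 46 genes were called higher and 5 lower in granulosa cells, beside 31.9% and 30.9% of the 15923 genes then tested. The median difference was 0.28, and 44 genes were called higher with and without this animal. MRPL9, MRPL15 and MRPL30 were called higher only with it and MRPL33 and MRPL53 only without it, and no log2 difference moved by more than 0.11 (MRPS12). In all, 38 genes were called higher whichever animal was left out, and 24 in every one of 17 alternative fits. The like shares over all genes were not computed. Without the animal as a block, 25 were called higher, beside 16.2% of all genes tested. By sign alone, 27 of 74 genes were higher in granulosa cells of 9 of 9 animals and 1 was lower in all 9, against 15.9% and 15.1% of all genes tested. Over the 8 animals without sheep 209, 28 genes were higher in all 8 and 3 (MRPL4, MRPL49 and MRPL51) were lower in all 8, against 23.5% and 22.5% of all genes. A gene given below as higher or lower in 9 of 9 animals was so in these 8 as well. Other cell types differed between the layers as well. Without sheep 209, 4 endothelial markers summed to between 1160 and 3347 in granulosa libraries and between 9484 and 17211 in theca libraries. The 4 smooth muscle and pericyte markers summed to between 16600.3 and 41379 in granulosa libraries and between 96412 and 202525 in theca libraries. None of these 8 markers was at 0 in these libraries, and their part in the differences was not tested.

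Among small-subunit proteins, 15 of 23 tested genes were higher in granulosa cells and none was lower, with a median log2 difference of 0.27. Without sheep 209 these counts were the same and the median was 0.28. Over all genes tested, 28.8% were higher and 27.8% lower, and 31.9% and 30.9% without sheep 209. MRPS22, a small-subunit protein found in mitochondria only, lay between 498 and 828.6 (median 629.9) normalized counts in the 9 granulosa libraries and between 299.9 and 593 (median 441) in the 10 theca libraries. The ranges overlapped, but within the animal granulosa cells were higher in 9 of 9. The log2 difference was 0.56 ± 0.06 (SE), with an adjusted p of 1.76e-05 by limma. MRPS25, another mitochondria-only protein of the small subunit, had the largest difference of the 74 genes, 0.64 ± 0.08 (adjusted p = 6.44e-05, limma). It lay between 432 and 2025 (median 1620.4) in granulosa and between 310.0 and 1233 (median 964) in theca libraries, with sheep 209 lowest in both layers. MRPS2, which has a bacterial counterpart, lay between 619 and 863 (median 694) in granulosa and between 384 and 699 (median 544) in theca libraries and differed by 0.46 ± 0.06 (adjusted p = 8.07e-05, limma). These 3 genes were higher in granulosa cells of every one of the 9 animals.

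Other small-subunit genes with a known medical or structural role followed. MRPS7, which binds the small ribosomal RNA early in assembly, lay between 208 and 391 (median 265) in granulosa and between 158 and 316 (median 207) in theca libraries and differed by 0.39 ± 0.07 (adjusted p = 0.000604, limma). MRPS28 differed by 0.46 ± 0.09, MRPS34, linked to Leigh syndrome in humans, by 0.39 ± 0.08, MRPS27, an RNA-binding pentatricopeptide repeat protein, by 0.36 ± 0.06, and MRPS16 by 0.27 ± 0.08, each past the threshold. The decoding-site protein MRPS12 did not pass: its difference was 0.16 ± 0.13 with an adjusted p of 0.311 by limma, and granulosa cells were higher in 4 of 9 animals. MRPS15 did not pass either, at 0.22 ± 0.09 (adjusted p = 0.0601, limma). The MRPS18 family has 3 members that occupy different places. MRPS18B and MRPS18C, both in the small subunit, differed by 0.60 ± 0.12 and 0.49 ± 0.15, and MRPS18A, which sits in the large subunit in spite of its name, by 0.34 ± 0.07. All 3 passed and were higher in granulosa cells of 9 of 9 animals. MRPS30, which also sits in the large subunit in spite of its name, was called higher too, as was MRPS5. Over 18 fits, the main one and its alternatives, MRPS30 ran from 0.19 to 0.27 and was called in 13. MRPS5 ran from 0.19 to 0.29 and was called in 17.

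Large-subunit proteins showed a like picture, with 32 of 50 tested genes higher in granulosa cells, 2 lower and a median log2 difference of 0.28. Without sheep 209, 31 were higher and 5 lower. The shares over all genes were 28.8% higher and 27.8% lower, and 31.9% and 30.9% without sheep 209. MRPL39, found in mitochondria only, lay between 704 and 1062 (median 843) in granulosa and between 439 and 738 (median 558) in theca libraries, a log2 difference of 0.57 ± 0.07 (adjusted p = 3.22e-05, limma). MRPL2, which lies near the site of peptide bond formation, lay between 221 and 515 (median 440.0) in granulosa and between 148 and 361 (median 291) in theca libraries and differed by 0.56 ± 0.09. MRPL38 and MRPL40 of the central protuberance differed by 0.52 ± 0.08 and 0.53 ± 0.08, and MRPL37 by 0.48 ± 0.07. All of these 5 were called, and each was higher in granulosa cells of 9 of 9 animals. MRPL23, beside the exit of the peptide tunnel, lay between 1066 and 1720.2 (median 1430.1) in granulosa and between 764 and 1257 (median 1162) in theca libraries and differed by 0.36 ± 0.06, and MRPL20, a protein that binds the large ribosomal RNA, by 0.36 ± 0.05, and both passed. MRPL44 and MRPL50 differed by 0.45 ± 0.10 and 0.31 ± 0.09, both past the threshold and each higher in granulosa cells of 8 of 9 animals. MRPL18 was called as well and was higher in granulosa cells of 9 of 9 animals. Over 18 fits, the main one and its alternatives, it ran from 0.29 to 0.39 and was called in 15. MRPL58, a peptidyl-tRNA hydrolase that frees stalled ribosomes, lay between 753 and 1096 (median 967) in granulosa and between 663 and 953 (median 767) in theca libraries and differed by 0.30 ± 0.07 (adjusted p = 0.00243, limma).

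The 2 genes lower in granulosa cells were MRPL51 and MRPL49, both large-subunit proteins found in mitochondria only. MRPL51 had 557, 434, 543, 593 and 484 normalized counts in prenatal T granulosa libraries and 436, 398, 408 and 489 in control granulosa libraries. In theca cells it had 563, 542, 652, 663 and 781 in prenatal T libraries and 638, 542, 471, 461 and 658 in control libraries. Granulosa cells were lower in 9 of 9 animals, with a difference of -0.29 ± 0.07 on the log2 scale with an adjusted p of 0.00426 by limma. MRPL49, whose span overlaps that of SYVN1, differed by -0.19 ± 0.07 (adjusted p = 0.035, limma) and lost its call when any one of sheep 210, 224, 244, 246, 268 or 315 was left out. Without sheep 209, MRPL3, MRPL4 and MRPL10 were called lower as well, at -0.19 ± 0.08, -0.29 ± 0.07 and -0.34 ± 0.09. With all libraries these 3 were at -0.16 ± 0.08, -0.22 ± 0.09 and -0.26 ± 0.11 and did not pass.

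The stalk of the large subunit, which recruits translation factors, was uneven. MRPL12, the stalk protein that in humans also binds the mitochondrial RNA polymerase, lay between 523 and 754 (median 627) in granulosa and between 488 and 908 (median 633) in theca libraries, and its difference of -0.005 ± 0.08 had an adjusted p of 0.968 by limma. That value changes sign with the scaling. MRPL10, which anchors the stalk, lay between 534 and 876 (median 729) in granulosa and between 452 and 1042 (median 886) in theca libraries. MRPL11, at the stalk base, passed with a difference of 0.28 ± 0.08 and was higher in granulosa cells of 9 of 9 animals. Other named genes did not pass: MRPL57 was at 0.20 ± 0.10 and MRPS36, now known as a subunit of the α-ketoglutarate dehydrogenase complex and not of the ribosome, at -0.07 ± 0.09.

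**Figure D2:**
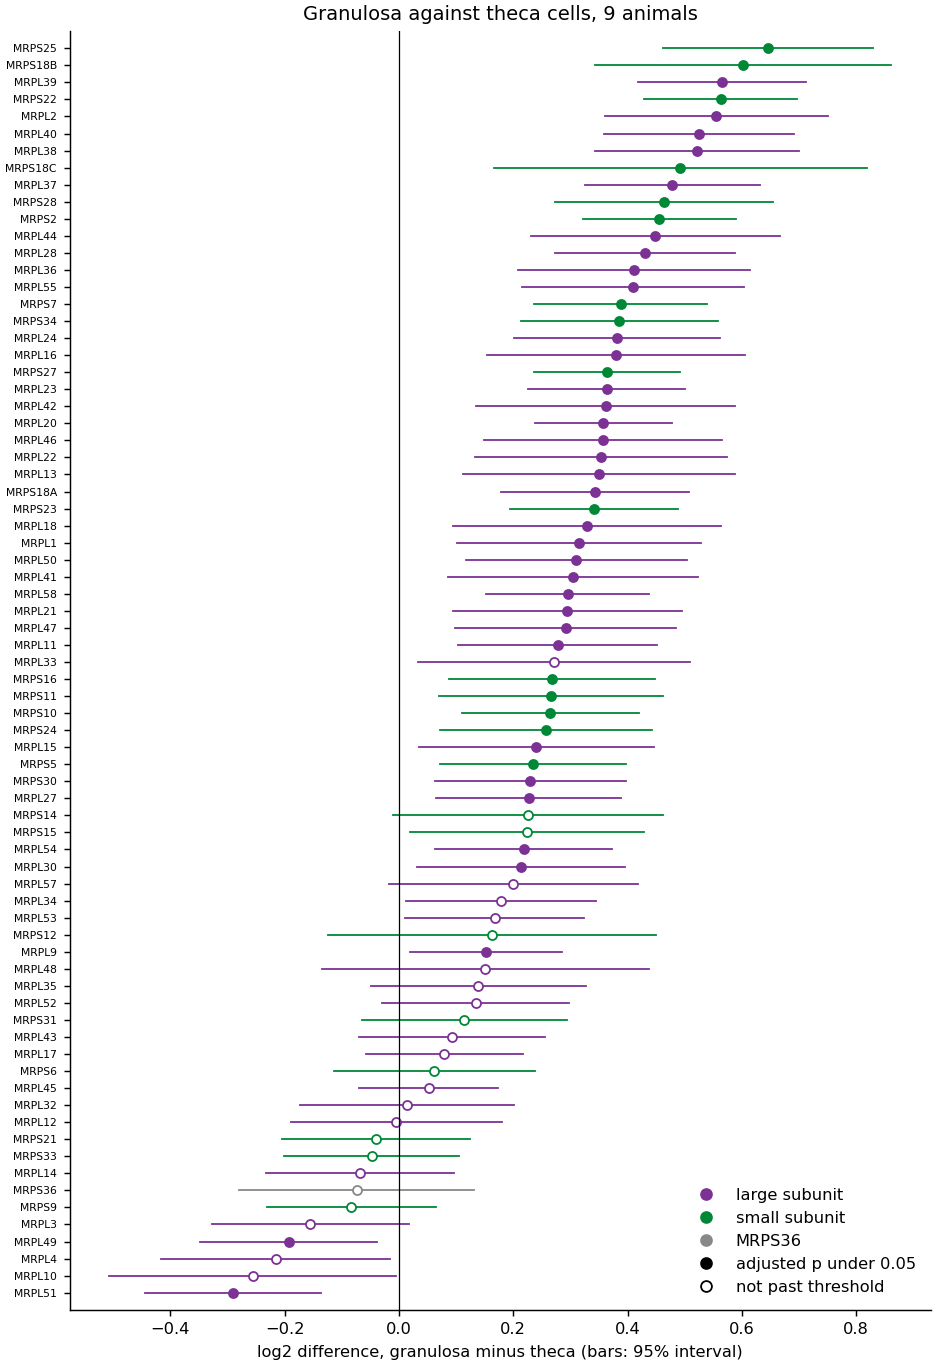
Log2 difference, granulosa minus theca, with its 95% interval for the 74 tested genes in 9 animals, sorted by size. Purple marks large-subunit, green small-subunit proteins and grey MRPS36, and filled points passed an adjusted p under 0.05; 63 points lie right of 0, and MRPL51 is the lowest at -0.29.

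Proteins with and without a bacterial counterpart are described apart, and the difference between them was not tested. Of the MRPS18 family, MRPS18C was counted with a bacterial counterpart, and MRPS18A and MRPS18B as found in mitochondria only. Of large-subunit genes, 19 of 29 with a bacterial counterpart and 13 of 21 found in mitochondria only were higher in granulosa cells, with medians of 0.28 and 0.30. Without sheep 209 these counts were 17 and 14, and the number called lower was 3 of 29 and 2 of 21, against 0 and 2 with all libraries. For the small subunit these were 9 of 15 and 6 of 8, with medians of 0.26 and 0.38, and the counts were the same without sheep 209. Of the 24 tested genes whose span overlaps another gene, 13 were higher and 1 lower, with a median of 0.25. Of the 48 matched genes without overlap, 33 were higher and 1 lower, with a median of 0.29. Without sheep 209, 13 and 32 were higher and 2 and 3 lower in these sets. Beside all of these counts stand 28.8% higher and 27.8% lower over all genes, and 31.9% and 30.9% without sheep 209.

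Other genes of mitochondrial translation were also higher in granulosa cells. Of 5 ribosomal proteins whose names do not follow the rule, 3 were higher and none lower: DAP3, a GTP-binding small-subunit protein, averaged 787 ± 155 normalized counts in granulosa and 469.5 ± 73.1 in theca libraries (SD, n = 9 and 10). PTCD3, at the entry site of messenger RNA, averaged 792 ± 179 in granulosa and 492 ± 72 in theca libraries. Their log2 differences were 0.73 ± 0.06 and 0.65 ± 0.07, and AURKAIP1 differed by 0.22 ± 0.06. Of 27 assembly genes, 18 were higher and none lower, with a median of 0.34, beside 28.8% higher and 27.8% lower over all genes. Among them were MTG1, a GTPase that acts on the large subunit (0.75 ± 0.08), METTL17, which acts on the small subunit (0.65 ± 0.08), and the matrix protein C1QBP (0.55 ± 0.06).

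Of 12 translation factors, 7 were higher and none lower, with a median of 0.32. The elongation factors GFM1 and TUFM differed by 0.63 ± 0.06 and 0.49 ± 0.07, and GFM2, which helps recycle the ribosome, by 0.34 ± 0.06. Of 19 genes listed for the charging of mitochondrial tRNAs, mostly aminoacyl-tRNA synthetases, 11 were higher and 2 lower, with a median of 0.25. The synthetases EARS2, TARS2 and SARS2 differed by 0.81, 0.63 and 0.57. Of 10 genes that copy or transcribe mitochondrial DNA, 5 were higher and none lower, with a median of 0.15. They included the RNA polymerase POLRMT (0.62 ± 0.09), its initiation factor TFB2M (0.62 ± 0.10) and the helicase TWNK (0.41 ± 0.08). Without sheep 209, 20 assembly genes were higher and none lower. The counts of the translation factors, tRNA-charging genes, transcription genes and ribosomal proteins outside the rule were the same. Over all genes, 28.8% were higher and 27.8% lower, and 31.9% and 30.9% without sheep 209.

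Of 9 tested regulators of mitochondrial biogenesis, 1 was higher and 2 were lower, with a median of 0.12. These are 11.1% and 22.2%, both below the 28.8% and 27.8% of all genes tested. PPRC1, a coactivator, was higher in granulosa cells by 0.33 ± 0.08. PPARGC1B, a related coactivator, averaged 246 ± 115 in granulosa and 595 ± 203 in theca libraries and was lower, at -1.29 ± 0.29, and GABPA, a subunit of an ETS factor that activates many mitochondrial genes, was lower, at -0.23 ± 0.06. The other 6 did not pass. Without sheep 209, 2 of the 9 were higher and 2 lower. Of 76 cytosolic ribosomal protein genes, 6 were higher and 19 lower, with a median of -0.12. These are 7.9% and 25%, both below the shares of all genes tested. Without sheep 209, 5 of them were higher and 44 lower. These are 6.6% and 57.9%, beside 31.9% and 30.9% of all genes then tested. Of 57 nuclear subunits of oxidative phosphorylation, 23 (40.4%) were higher and 2 (3.5%) lower, with a median of 0.11. Without sheep 209, 23 were higher and 7 lower, with a median of 0.085. The proteins encoded in mitochondrial DNA were not analysed here.

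**Figure D3:**
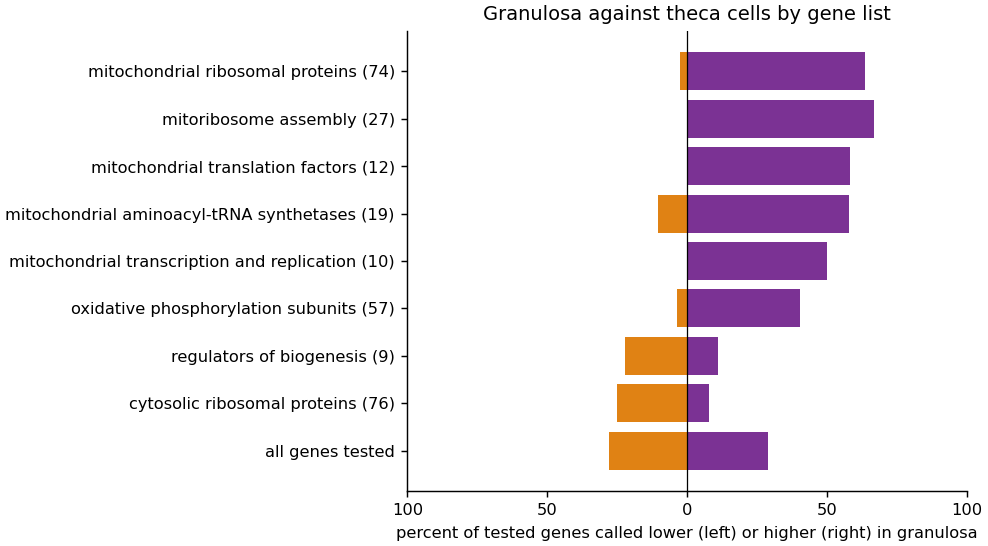
Percent of tested genes called higher (purple, right) or lower (orange, left) in granulosa than in theca cells, by gene list, with the number tested in brackets and all tested genes in the bottom bar. The mitochondrial ribosomal proteins reach 63.5% higher, against 28.8% of all genes.

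After prenatal T, no mitochondrial ribosomal protein gene was called changed in granulosa cells. By limma 0 of 74 genes passed, beside 0 of 14724 genes tested (0%), and 2 of the 74 and 622 of all genes had an unadjusted p under 0.05. By edgeR 0 of the 74 and 0 of all genes passed, and by DESeq2 0 of the 74 and 16 of all genes. Log2 differences, prenatal T minus control, ran from -0.50 for MRPS25 to 0.48 for MRPS36, with a median of 0.10 beside -0.015 over all genes, and 49 of the 74 lay above 0. Summed over the 75 genes, prenatal T granulosa libraries averaged 38732 ± 4884 normalized counts and control granulosa libraries 37301 ± 2687 (SD, n = 5 and 4), and the groups overlapped. The 95% intervals of 28 of the 74 genes lay within 0.5 either side of 0, and those of the others reached further.

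The named genes in granulosa cells are those of smallest unadjusted p. MRPL4, a protein of the wall of the peptide tunnel, had 598, 566, 591, 645 and 589 normalized counts in prenatal T libraries and 527, 530.5, 450.2 and 481 in control libraries. All 5 prenatal T values were above all 4 control values, and MRPL4 was the only one of the 74 genes whose groups did not overlap, beside 2.41% of all genes tested. The log2 difference was 0.27 ± 0.11, with an unadjusted p of 0.0371 and an adjusted p of 0.875 by limma. MRPL17, near the tunnel exit, had 789, 466.2, 491, 584 and 502 in prenatal T and 425, 347, 426 and 476 in control libraries. Its groups overlapped, the highest value was that of sheep 209, and the difference of 0.42 ± 0.18 did not pass (adjusted p = 0.875, limma). MRPL48 of the central protuberance had 217, 177, 245, 195 and 153 in prenatal T and 129, 112, 163 and 165 in control libraries, a difference of 0.47 ± 0.21. MRPL15 and MRPL51 were at 0.33 ± 0.16 and 0.27 ± 0.14. None of these 3 passed.

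Without sheep 209, 0 of 74 genes passed in granulosa cells, beside 0 of 14460 genes (0%), and 2 of the 74 and 1013 of all genes had an unadjusted p under 0.05. The median difference was then 0.14 and 63 of the 74 genes lay above 0. MRPL4 was again the only gene without overlap, beside 3.85% of all genes. MRPS28 had 258, 359.6, 374, 499.7 and 327 in prenatal T libraries, with sheep 209 first, and 277, 208, 238 and 349 in control libraries. Without that animal its difference was 0.55 ± 0.20 with an adjusted p of 0.704 by limma. MRPL22 and MRPL37 were then at 0.41 ± 0.20 and 0.27 ± 0.13 and did not pass. MRPS25 had 432 counts in the granulosa library of sheep 209, while the other prenatal T granulosa libraries held 1114 to 1978, and its difference was -0.50 ± 0.40 with this animal and -0.15 ± 0.19 without it.

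In theca cells, no mitochondrial ribosomal protein gene was called changed after prenatal T either. By limma 0 of 74 passed, beside 0 of 15492 genes tested (0%), and 5 of the 74 and 1192 of all genes had an unadjusted p under 0.05. By edgeR 0 of the 74 and 0 of all genes passed, and by DESeq2 0 of the 74 and 7 of all genes. The median log2 difference was 0.028, beside 0.000 over all genes, with 41 of 74 above 0 and a range of -0.43 to 0.55. The median was -0.035 without control sheep 244, whose theca sum was the lowest of the control libraries. Summed levels averaged 32243 ± 3473 normalized counts in prenatal T and 32672 ± 3512 in control theca libraries (SD, n = 5 each), and the groups overlapped.

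MRPL1, which forms the mobile L1 stalk where spent tRNAs leave the ribosome, had 219, 359.6, 391, 334 and 469 normalized counts in prenatal T theca libraries and 244, 249, 199, 261 and 222 in control theca libraries. Sheep 209 lay within the control range, and the other 4 prenatal T animals lay above every control animal. The log2 difference was 0.55 ± 0.20 with an adjusted p of 0.644 by limma. Without sheep 209 it was 0.72 ± 0.14, with an unadjusted p of 0.000392 and an adjusted p of 0.371 by limma, a value that other genes shared and none went below in that comparison. In granulosa cells MRPL1 had 281, 396, 384, 414 and 432 in prenatal T and 308, 275, 433 and 354 in control libraries, and the groups overlapped.

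MRPS36 had 210.0, 206, 250.1, 261 and 254 normalized counts in prenatal T theca libraries and 154, 152, 134, 168 and 209 in control theca libraries. Only control sheep 268 reached the prenatal T range, and the difference of 0.54 ± 0.16 had an adjusted p of 0.644 by limma. In granulosa cells it was 0.48 ± 0.26, also not past the threshold. MRPL33 had 501, 320.2, 326, 342 and 414 in prenatal T theca and 272, 268, 199, 339.8 and 248 in control theca libraries, a difference of 0.52 ± 0.18. MRPL10 had 452, 871, 726, 758 and 897 in prenatal T theca and 1042, 960.3, 875, 1012 and 973 in control theca libraries, a difference of -0.43 ± 0.18. For both genes 1 animal or more of a group lay within the range of the other. MRPL21 was at -0.29 ± 0.12. None of these genes passed.

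Without sheep 209, 0 of 74 genes passed in theca cells, beside 0 of 15304 genes (0%), and 9 of the 74 and 1854 of all genes had an unadjusted p under 0.05. The median was 0.091 with 47 of 74 genes above 0. The groups did not overlap for 4 genes, MRPL1, MRPL35, MRPL39 and MRPL47, each higher in the 4 prenatal T animals, beside 4.61% of all genes. With all libraries no gene of the 74 was free of overlap, beside 2.26% of all genes. MRPL47, a tunnel-exit protein, had 258, 427, 407, 392.1 and 528 in prenatal T theca and 265, 307, 324, 353 and 327 in control theca libraries, and differed by 0.47 ± 0.13 without sheep 209. MRPL35 and MRPL39 were then at 0.56 ± 0.20 and 0.32 ± 0.10. Their adjusted p was 0.371 in each case by limma.

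**Figure D4:**
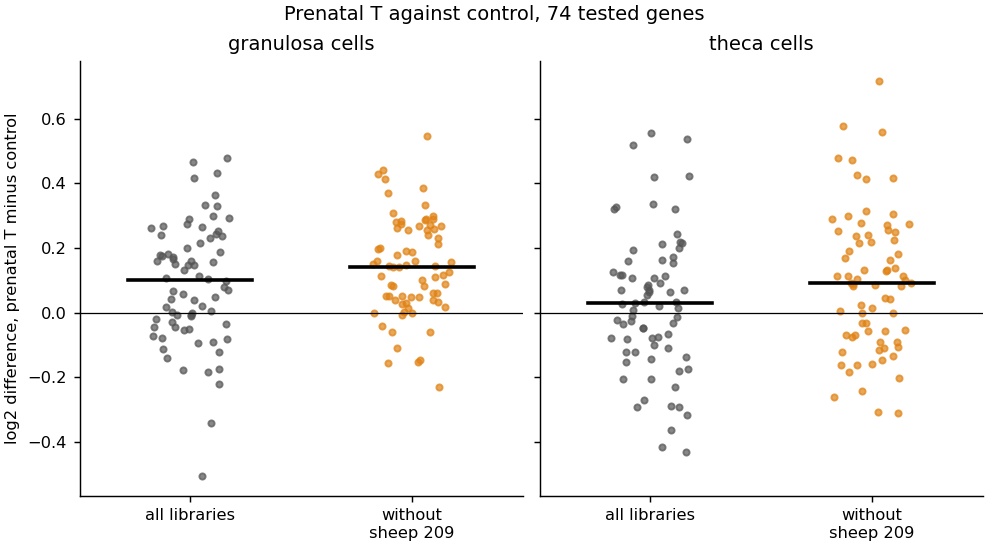
Log2 difference, prenatal T minus control, of the 74 tested genes in granulosa (left) and theca cells (right), with all libraries and without sheep 209. Points are genes, spread sideways for clarity, and bars are medians, at 0.10 and 0.14 in granulosa and 0.028 and 0.091 in theca cells; no point passed the threshold.

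**Figure D5:**
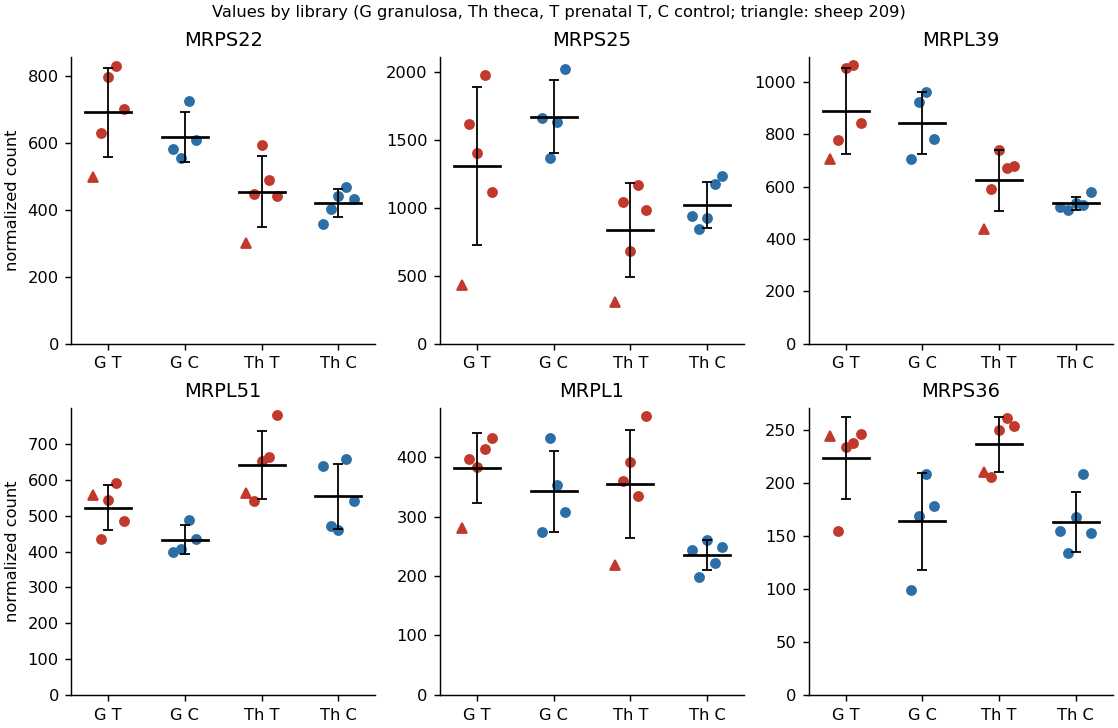
Normalized counts of 6 of the genes in each library, with granulosa left of theca and prenatal T left of control, bars for the mean and SD and triangles for sheep 209. MRPS22, MRPS25 and MRPL39 are higher in granulosa, MRPL51 is lower, and in theca cells MRPL1 and MRPS36 show most prenatal T values above the control values without passing the threshold.

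The prenatal T effect was also compared between the layers, on the within-animal differences of 9 animals. By limma 0 of 74 genes passed, beside 0 of 16169 genes (0%), and 1 of the 74 and 755 of all genes had an unadjusted p under 0.05. By edgeR 0 of the 74 and 0 of all genes passed, and by DESeq2 0 of the 74 and 20 of all genes. The gene with p under 0.05 was MRPL1, whose effect in granulosa minus that in theca cells was -0.41 ± 0.16 (adjusted p = 0.96, limma). MRPS24, MRPL15, MRPL40 and MRPL47 followed, at 0.32, 0.34, 0.27 and -0.30. Without sheep 209, 0 of 74 passed beside 0 of 15923 genes (0%), with 2 of the 74 and 1328 of all genes at an unadjusted p under 0.05. MRPL1 was then at -0.47 ± 0.16 and MRPS34 at 0.31 ± 0.14. MRPL37 and MRPS21 were at 0.26 and -0.24.

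The other genes of mitochondrial translation gave no call after prenatal T in either layer. Of the ribosomal proteins outside the naming rule, PTCD3 was at 0.42 in granulosa and 0.25 in theca cells. The release factor MTRF1 was at 0.43 in granulosa cells and the assembly GTPase MTG2 at -0.41 in theca cells. In theca cells, the regulators GABPB1 and NRF1 were at 0.39 and -0.28. Adjusted p-values by limma were 0.875 for PTCD3 and MTRF1 in granulosa cells and between 0.644 and 0.66 for these genes in theca cells.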

How the data were processed

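Each value is a normalized signal, the read count of a gene after the authors had divided it by a size factor of its library. The submitters' processing notes list STAR 2.6.0c, Subread 1.6.1 with featureCounts, DESeq2, FastQC 0.11.5 and MultiQC 0.9. A genome build was not given in the sources used here. Ribosomal RNA was depleted before a stranded library preparation, per the labels' protocols. Dividing by the smallest step gave whole reads for 100% of values (relative tolerance 1e-06), and 0 columns lacked a sample.

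A gene entered a comparison if 5 or more of its libraries had a value of 10 or higher. The test was limma 3.58.1 in R 4.3.3, run with a trend of the variance on log2(value + 1), which understates changes of low genes. P-values were two-sided and adjusted by Benjamini-Hochberg over all genes tested, with a threshold of 0.05. Granulosa against theca cells, and the difference of prenatal T effects, had the animal as a block. The pairing comes from the sheep number in the labels. Deviations of an animal's 2 layers from their group means had a correlation of 0.42 to 0.80 over genes, which are not independent replicates. No 2 libraries of the same group agreed within sampling noise (36 pairs), and libraries of different groups were not compared in this way. The recovered reads were also tested with edgeR 4.0.16 and with DESeq2 1.42.0. The scripts were tested on simulated data.

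The members and lists were chosen with earlier results of these data known. The text names, in each comparison with and without sheep 209, up to 10 members past the threshold per direction by p, or the 5 of smallest p where fewer than 5 passed. It also names the 3 members with the highest and the 3 with the lowest mean, and members fixed for their roles. Up to 3 genes of smallest p were named from each related list. The alternatives were another scaling, a pseudocount of 10, no filter, the replicate block and leaving out each animal. Fits by edgeR, with TMM scaling and with the block, each without sheep 209, and the lists of cytosolic ribosomal and oxidative phosphorylation genes were added after seeing the data.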

Additional observations from a re-analysis of the deposited data

Results flagged for a closer look

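Only the 47 genes named by the rules above were scanned, not all 75. In their 188 groups of 4 or 5 libraries, 1 library of a gene stood far from the rest of its group 6 times. The limit was Dixon's 95% limit on the gap to the nearest library, where chance gives about 1 in 20 groups. MRPL33 reached 592 normalized counts in prenatal T granulosa cells of sheep 315, with the other 4 between 347 and 385. MRPS36 fell to 155 in prenatal T granulosa cells of sheep 210, with the others between 234 and 246. MRPS18C reached 229 in control granulosa cells of sheep 246, with the others between 120.2 and 134. MRPS7 reached 316 in prenatal T theca cells of sheep 276, with the others between 206 and 229. MRPS12 lay at 132 in control theca cells of sheep 244, with the others between 222 and 245. MRPS18A reached 393 in control theca cells of sheep 268, with the others between 325 and 341. No animal was flagged for more than 1 of these 47 genes.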

How the results depend on the processing

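The median log2 differences of the 74 genes moved by less than the SD between replicates of the mean log2 level under every alternative run. This SD was 0.086 for granulosa against theca cells and 0.085 for the difference of effects. For prenatal T it was 0.15 in granulosa and 0.16 in theca cells. These 2 SDs exceed the medians of 0.10 and 0.028, so a median of 0 would also have met this limit. Leaving out each animal in turn, the medians ran from 0.26 to 0.30 for granulosa against theca cells, from 0.038 to 0.16 for prenatal T in granulosa cells, from -0.035 to 0.091 in theca cells and from 0.052 to 0.16 for the difference of effects. The count called higher in granulosa cells was 47, was 25 without the replicate block, and ran from 40 to 46 when an animal was left out. The share of all genes called higher in these fits was 28.8%, 16.2% and 26.3% to 31.9%. The count called lower was 2, was 1 without the replicate block and with no filter, and was 4 without sheep 209 both by edgeR and with TMM scaling. It was 5 without sheep 209 and 1 without any one of sheep 210, 224, 244, 246, 268 or 315. MRPL12, at -0.005, changed sign between the layers to 0.0016 with TMM scaling, 0.018 by edgeR, 0.0066 without sheep 224, 0.023 without sheep 246, 0.032 without sheep 268 and 0.021 without sheep 276, and leaving out each animal gave -0.066 to 0.032. For prenatal T, 0 of the 74 genes passed under every alternative run. With the replicate block, an estimated correlation between the layers of an animal, 0 of the 74 passed in both layers, with 1 of all genes called in granulosa and 0 in theca cells. Each library held at least 12699124 reads, and with 4 or 5 animals a group the 95% interval of a prenatal T effect reached 1 on the log2 scale for 2 genes in granulosa and 1 gene in theca cells. The causes of these shifts were not tested.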
